A study of Saccharomyces cerevisiae with 24 samples.

Results

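Sc[Sp] is a haploid strain of the budding yeast Saccharomyces cerevisiae in which actin mRNA came almost wholly from an introduced gene, also named Sc[Sp], and not from the yeast's own ACT1. Here its 3 RNA-seq libraries were set against the 3 of the haploid wild type ScNI, which makes 6 of the series' 24 libraries. All 5838 yeast gene rows of the haploid table were members and 5808 were tested, while the 5 rows for introduced actin genes were set aside and are described separately. The series covers 8 strains that differ in actin or in ploidy, 6 haploid and 2 diploid. It asks how the transcriptome differs between strains that depend on different actins. Both groups grew in rich medium with 2% dextrose at 25 °C and were taken in log phase, and poly(A) RNA went into strand-marked libraries made from 500 ng of total RNA with 10 PCR cycles. The labels give only the strain name and the ploidy, with no allele, promoter or selection marker for either strain and no statement of whether a strain is 1 clone. Sc[At] and Sc[Ca], 2 more haploid strains with introduced actins of their own and grown in the same way, are used for comparison, and N2 and Ca enter only the estimate of spread.

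Actin is the subunit of the filaments that build cortical patches, cables and the contractile ring of a yeast cell. Patches, nucleated by the Arp2/3 complex, drive endocytosis. Cables, nucleated by formins, carry secretory vesicles, organelles and some mRNAs to the bud, and the ring helps divide the cell. Actin is folded by the CCT chaperonin, and actin monomers also sit in nuclear complexes that remodel chromatin.

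The actin rows fitted the labels. The introduced Sc[Sp] row was at 17089.5, 18925 and 16224 normalised counts in the Sc[Sp] libraries and at 0 in the 3 ScNI libraries. ACT1 was at 31.6, 9.43 and 21.7 normalised counts in Sc[Sp], against 18549, 18547 and 18397 in ScNI (log2 difference −9.87, SE 0.40, adjusted p = 1.48e-08; limma with a replicate block, Benjamini-Hochberg adjusted over all 5808 genes, as for every adjusted p in this text unless another fit is named). Each ScNI library was thus far above each Sc[Sp] library for ACT1. Summed over ACT1 and the 5 introduced rows, actin reads came to 17121, 18936 and 16245 in Sc[Sp], against 18799.6, 18869.6 and 18659 in ScNI, so that the total in Sc[Sp] replicate 2 lay above the 3 wild-type totals and the other two Sc[Sp] totals lay below them. ScNI also had 204 to 234 normalised counts in the N2 row, 16.4 to 52.6 in the Ca row and 26.2 to 36.2 in the Sc[Ca] row, where Sc[Sp] had at most 1.05. What gives wild type these reads was not tested.

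The Sc[Sp] libraries held 12125501 to 12317327 reads and the ScNI libraries 12387613 to 15403081. Replicate 2 of each strain had the mRNA pattern of MATalpha cells and replicates 1 and 3 that of MATa cells. STE3, the receptor that MATalpha cells carry, was at 147, 9169 and 167 normalised counts in Sc[Sp], against 72.2, 8867 and 75 in ScNI, so replicate 2 stood far above the others in both strains. The replicate number was kept as a block in the fit. All 18 haploid libraries of the 6 strains shared an estimate of spread, and that estimate was not even along the genome. The median standard error of the log2 difference was 0.217 for genes of chromosome XIII, 0.199 for chromosome VI and 0.161 for chromosome XI, against 0.119 to 0.148 for the other 13 chromosomes. Some N2 and Ca libraries had raised medians over whole chromosomes, such as 0.87 for chromosome XIII in Ca replicate 1, whereas the median log2 difference of Sc[Sp] from ScNI lay between −0.07 and 0.05 on each of the 16 nuclear chromosomes. Without N2 and Ca, in a fit of the remaining 12 libraries, the median standard errors were 0.087 to 0.102. Only 3 genes of chromosomes VI and XIII were called lower in the 18-library fit, against 124 in the 12-library fit, of 593 tested there. Calls of higher were 20 on VI and 57 on XIII in the 18-library fit, and 27 and 99 in the 12-library fit. Chromosome XI gave 28 higher and 8 lower in the 18-library fit, against 79 and 70 in the 12-library fit. The 18-library calls on these chromosomes thus leaned towards rises. List counts from both fits are therefore given below, the 18-library fit first, and "rose" and "fell" refer to the 18-library fit.

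**Figure D1:**
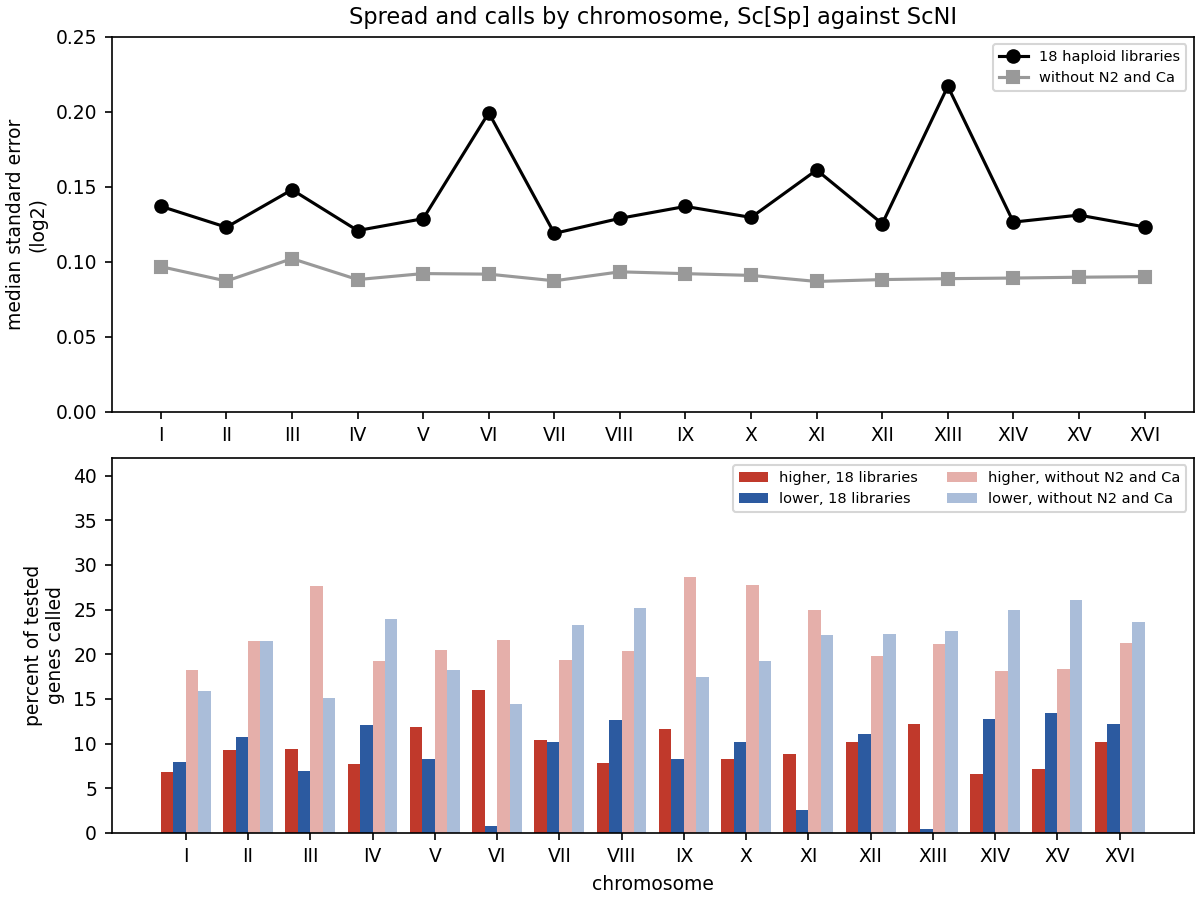
Median standard error of the log2 difference between Sc[Sp] and ScNI (top, log2 units) and percent of tested genes called higher or lower at adjusted p under 0.05 (bottom), for each nuclear chromosome (x axis), with all 18 haploid libraries and without the N2 and Ca strains. The standard errors peak on chromosomes VI, XI and XIII at 0.199, 0.161 and 0.217 in the 18-library fit and are level without N2 and Ca.

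In Sc[Sp], 543 genes rose (9.35% of those tested) and 556 fell (9.57%), 1099 in all (18.9%). The balance of directions moved with the settings, with 517 higher and 733 lower under quantile normalisation, 217 and 115 without Sc[Sp] replicate 2 and 243 and 113 without ScNI replicate 1. The rises were the larger changes. Beyond 2-fold there were 166 rises and 48 falls, the median size of a called change was 0.59 on the log2 scale, and the median over all tested genes was −0.02. Of the 1099, 1098 moved the same way in each of the 3 pairs of same-numbered libraries, and 1092 had no overlap between the groups, as did 3343 of all tested genes. Lack of overlap, given for single genes below, was thus usual among called genes and is no separate evidence. In the 12-library fit 1229 genes were called higher (21.2%) and 1295 lower (22.3%), 2524 in all (43.5%), and these included each of the 1099. Single libraries weighed on the count in the 18-library fit, which was 595, 332 and 459 without Sc[Sp] replicates 1, 2 and 3, and 356, 379 and 397 without ScNI replicates 1, 2 and 3. In the 12-library fit the same omissions left 1781 to 2211. Without the MATalpha libraries the 18-library design gave 50 calls and the 12-library design 1852. Of the 1099 genes, 267 were called in all 6 omissions of the 18-library fit and 971 in all 6 of the 12-library fit. The labels do not say whether the replicates were separate cultures, so p-values measure the spread between these samples.

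**Figure D2:**
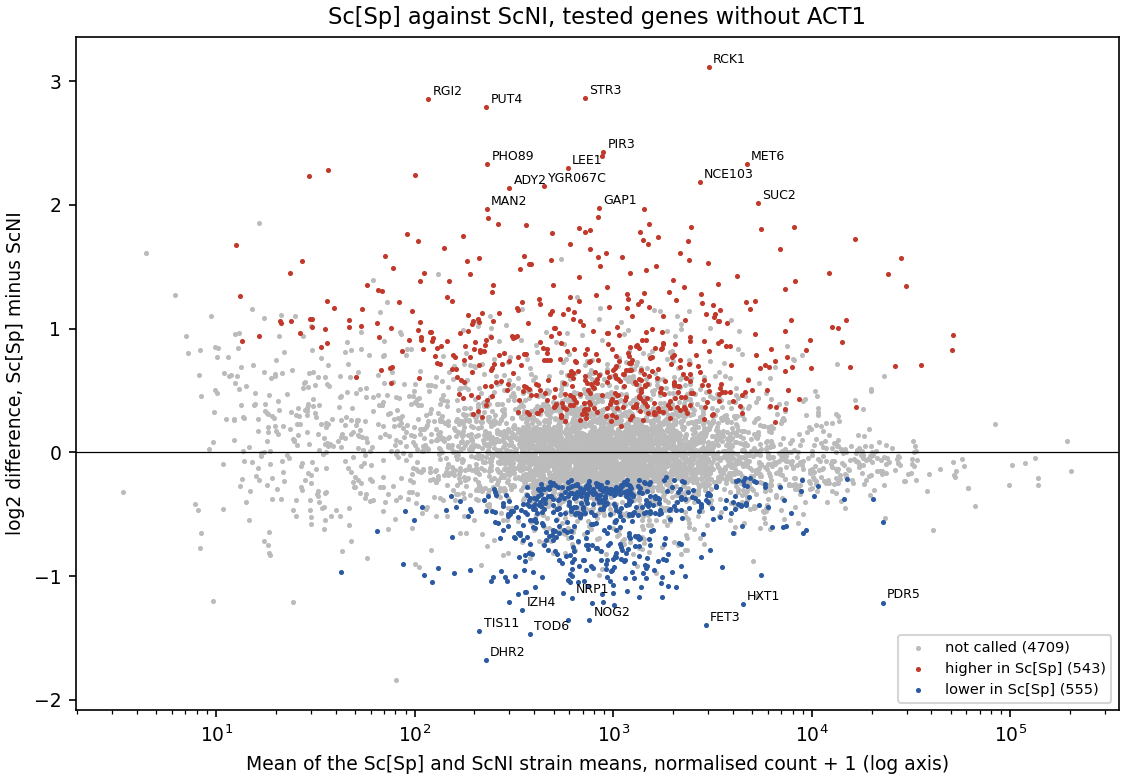
Log2 difference between Sc[Sp] and ScNI (y axis) against the mean level in normalised counts (x axis, log scale) for each tested gene other than ACT1. Red points are the 543 genes called higher in Sc[Sp], blue points the called lower ones and grey points genes not called; rises reach 3.11 (RCK1) while falls other than ACT1 reach −1.68 (DHR2).

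The 15 largest rises took in genes of several kinds. RCK1, a kinase of the oxidative stress response, was at 5807, 4508 and 5820.1 normalised counts in Sc[Sp], against 989, 497 and 479 in ScNI (log2 difference 3.11, SE 0.42, adjusted p = 0.000629). PUT4, the proline permease, was at 454, 428 and 317 normalised counts in Sc[Sp], against 67.3, 56.7 and 46.7 in ScNI (2.79, SE 0.22, adjusted p = 1.01e-05). PIR3, a cell wall protein, was at 1280.1, 2070.5 and 1176 normalised counts in Sc[Sp], against 281, 280.4 and 253 in ScNI (2.43, SE 0.46, adjusted p = 0.00492). For all 3 genes the lowest Sc[Sp] library stood above the highest ScNI library, and PIR3 was highest in the MATalpha library of Sc[Sp]. NCE103, the carbonic anhydrase, was at 4296, 4656 and 4425 normalised counts in Sc[Sp], against 1045, 1055 and 849 in ScNI (2.19, SE 0.42, adjusted p = 0.00508). RGI2, a respiratory growth gene, was at 199.8, 205 and 209.7 normalised counts in Sc[Sp], against 25.4, 29.6 and 27.4 in ScNI, the smallest counts among the 15 (2.86, SE 0.50, adjusted p = 0.00289). Neither gene's groups overlapped. The others were STR3, HSP12, PHO89, MET6, LEE1, YGR067C, ADY2, SUC2, GAP1 and MAN2, with log2 differences of 1.96 (MAN2) to 2.86 (STR3).

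The 15 largest falls held several ribosome assembly genes. DHR2, an RNA helicase of small-subunit assembly, was at 109, 99.6 and 113 normalised counts in Sc[Sp], against 343, 313 and 382 in ScNI (−1.68, SE 0.46, adjusted p = 0.0266). NOG2, a GTPase of late large-subunit assembly, was at 429, 405 and 436 normalised counts in Sc[Sp], against 1114, 969 and 1180.5 in ScNI (−1.36, SE 0.32, adjusted p = 0.0149). SYO1, the chaperone that brings 5S ribonucleoprotein subunits Rpl5 and Rpl11 into the nucleus, was at 320.0, 319 and 361 normalised counts in Sc[Sp], against 810.4, 839.6 and 909.7 in ScNI (−1.36, SE 0.28, adjusted p = 0.0078). The 3 genes had no overlap between groups, with wild type higher throughout. TOD6, whose protein binds the PAC element and represses ribosome assembly genes, also fell, at 219, 189 and 195 normalised counts in Sc[Sp], against 568, 505 and 602 in ScNI (−1.47, SE 0.33, adjusted p = 0.0117). Further falls were HCA4, MAK16 and DBP8 of ribosome assembly, TIS11 and FET3 of iron use, IZH4, HXT1, BTN2, PDR5 and NRP1, with log2 differences of −1.17 (NRP1) to −1.45 (TIS11), besides ACT1 itself.

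**Figure D3:**
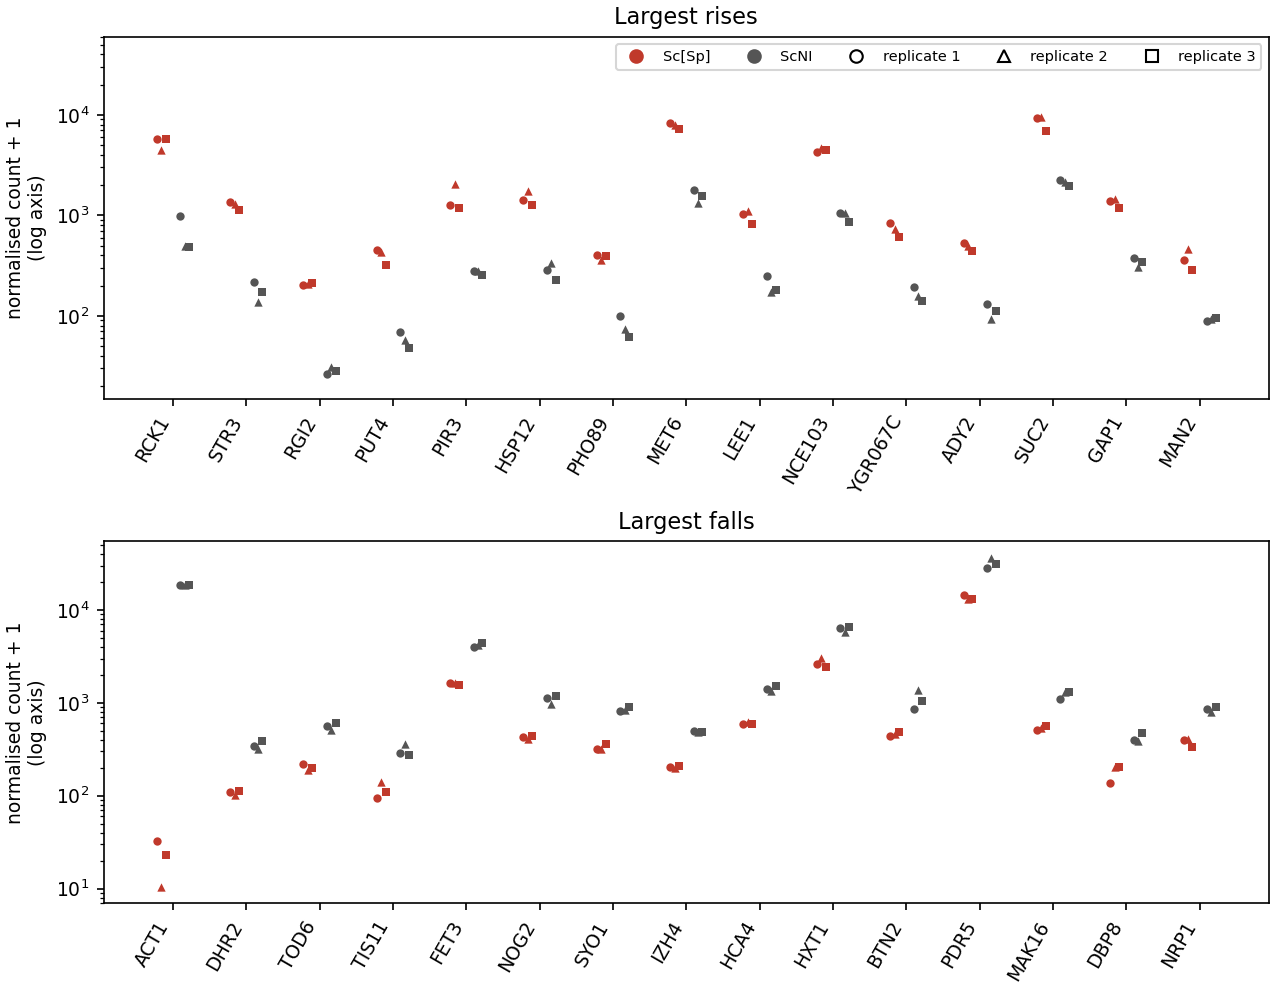
Normalised count + 1 (log axis) in each of the 3 Sc[Sp] libraries (red, left of each pair) and the 3 ScNI libraries (grey, right) for the 15 largest rises (top) and the 15 largest falls (bottom), by symbol shape for replicate 1, 2 and 3. In each of the 30 genes the 3 Sc[Sp] points lie on 1 side of the 3 ScNI points.

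Many ribosome assembly genes fell, 51 of the 102 tested in 2 lists. A ribosome is built in the nucleolus, where the small-subunit processome cuts and folds the precursor rRNA and a separate set of factors assembles the large subunit. Of the 46 processome genes tested, 25 fell and 0 rose (44 lower and 0 higher in the 12-library fit), and all 46 had a negative log2 difference, with a median of −0.87 against −0.02 for all genes. Of the 56 large-subunit assembly genes, 26 fell and 0 rose (54 and 0 in the 12-library fit), again with 56 of 56 below 0 and a median of −0.82. The processome median was −0.83, −0.85 and −0.89 in the 3 same-numbered pairs. No single processome or large-subunit gene was called in all 6 single-library omissions of the 18-library fit, whereas 43 and 48 genes were in the 12-library fit.

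Promoters of many of these genes hold the elements PAC (GCGATGAG) and RRPE (AAAAATTTT), and 3 windows are shown for how the elements lie. The windows run from 250 bases before to 50 bases after the annotated gene start, on the gene's own strand in build R64, and capitals mark PAC and RRPE matches on either strand, some of which touch or overlap. NOG2 has PAC next to RRPE, and RRPE again further down. NAN1, which encodes the processome subunit Utp17, has RRPE before PAC with a gap. In PWP2, another processome subunit, RRPE and PAC abut.
NOG2, chrXIV:723063-723362, minus strand: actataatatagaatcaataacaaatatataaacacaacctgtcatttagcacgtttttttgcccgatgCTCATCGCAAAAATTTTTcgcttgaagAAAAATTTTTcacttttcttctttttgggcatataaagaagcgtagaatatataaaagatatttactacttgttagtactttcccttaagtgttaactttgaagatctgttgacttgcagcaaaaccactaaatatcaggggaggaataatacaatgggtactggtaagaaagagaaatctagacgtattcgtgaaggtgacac
NAN1, chrXVI:309960-310259, plus strand: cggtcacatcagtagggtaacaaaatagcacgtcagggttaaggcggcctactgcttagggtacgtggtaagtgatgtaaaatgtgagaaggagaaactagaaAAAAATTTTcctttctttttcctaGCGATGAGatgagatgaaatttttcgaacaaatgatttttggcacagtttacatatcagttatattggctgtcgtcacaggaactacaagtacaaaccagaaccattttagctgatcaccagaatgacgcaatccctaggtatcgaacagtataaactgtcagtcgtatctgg
PWP2, chrIII:223179-223478, minus strand: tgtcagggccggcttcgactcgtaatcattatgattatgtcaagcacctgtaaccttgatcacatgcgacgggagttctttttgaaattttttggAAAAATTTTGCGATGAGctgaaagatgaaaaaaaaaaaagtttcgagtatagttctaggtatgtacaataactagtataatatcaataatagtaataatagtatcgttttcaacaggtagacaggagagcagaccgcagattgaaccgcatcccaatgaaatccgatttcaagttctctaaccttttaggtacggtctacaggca
NAN1 was at 1148, 1101 and 1138 normalised counts in Sc[Sp], against 2201, 2238 and 2629 in ScNI (−1.06, SE 0.24, adjusted p = 0.0122), and PWP2 at 735, 793 and 687 in Sc[Sp], against 1645, 1468 and 1698 in ScNI (−1.12, SE 0.28, adjusted p = 0.0196). Wild type was higher in each of these libraries, with no overlap. PAC was present in 58 of 102 promoters of the processome and large-subunit lists (56.9%), against 4.1% of all 5726 promoters scanned, and RRPE in 64.7% against 7.23%. Over all genes that fell, the shares were 15.1% for PAC and 20.9% for RRPE, and over all genes that rose, 0.554% and 2.77%. Within the 2 lists, called and uncalled genes had PAC at 52.9% and 60.8% and RRPE at 72.5% and 56.9%. A match describes the letters of the window and does not show that a factor binds there.

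Several groups around the ribosome had falls of smaller size. Of 18 RNA polymerase I genes, which serve rRNA synthesis, 7 fell and 0 rose (13 and 0 in the 12-library fit, median −0.44). RPA135, the second-largest subunit, was at 2446, 2448 and 2363 normalised counts in Sc[Sp], against 4541, 4164 and 5184 in ScNI (−0.93, SE 0.23, adjusted p = 0.019). Of 46 genes for RNA polymerase III, which makes tRNAs and 5S rRNA, and tRNA modification, 21 fell and 0 rose (35 lower and 1 higher in the 12-library fit, median −0.46). Translation factors and aminoacyl-tRNA synthetases had 10 falls and 0 rises of 55 (37 lower, 1 higher, median −0.27). The ribosomal protein genes themselves changed little, with 3 falls (RPS7B, RPL9B and RPL7B) and 0 rises of 137 and a median of −0.08. In the 12-library fit they gave 16 lower and 1 higher, below that fit's background of 22.3% lower calls. Several ribosomal protein genes have near-identical copies whose reads the counting may have split, so single members are uncertain. Mitochondrial ribosomal protein genes had 10 falls and 0 rises of 69 (21 lower and 3 higher, median −0.17), led by IMG2 (−0.61) and MRPL40 (−0.52), with 9.57% and 22.3% lower over all genes in the 2 fits.

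**Figure D4:**
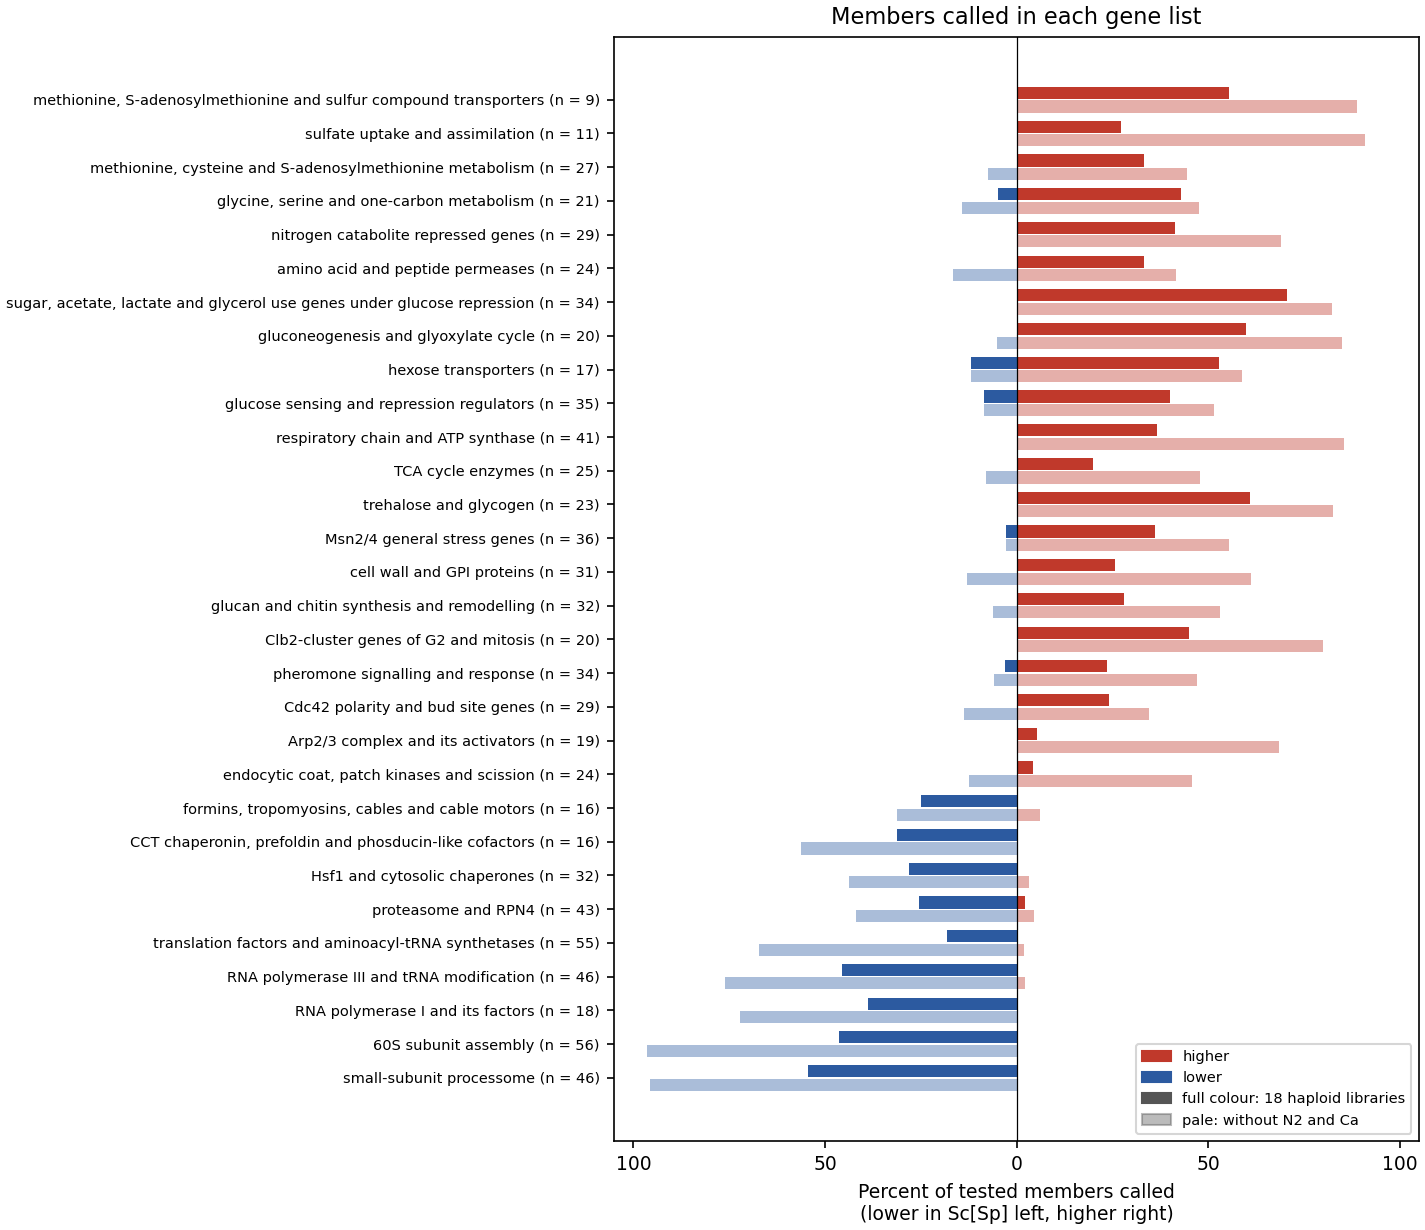
Percent of tested members (x axis) called lower (blue, left) or higher (red, right) in Sc[Sp] for 30 gene lists, with the number of tested members in brackets. Full colour is the 18-library fit and pale colour the fit without N2 and Ca; the processome and large-subunit lists reach 44 of 46 and 54 of 56 genes lower in the pale bars.

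Part of the genes of sulfur amino acid uptake and synthesis rose, above all the transporters. Yeast takes up methionine and S-adenosylmethionine through dedicated permeases and makes both from sulfate, under the activator Met4 with its DNA-binding partners Cbf1, Met31 and Met32. Of 9 transporter genes 5 rose and 0 fell (8 and 0 in the 12-library fit), with a median log2 difference of 1.20. MMP1, the S-methylmethionine permease, was at 2262, 2218 and 1974 normalised counts in Sc[Sp], against 841, 532 and 624 in ScNI (1.71, SE 0.13, adjusted p = 8.84e-06). SAM3, the S-adenosylmethionine permease, was at 4089.9, 3813 and 3696 normalised counts in Sc[Sp], against 2017, 1391 and 1683 in ScNI (1.20, SE 0.15, adjusted p = 0.000462). MUP3, a low-affinity methionine permease, was at 1151, 1252 and 1153 normalised counts in Sc[Sp], against 349, 345 and 327 in ScNI (1.80, SE 0.25, adjusted p = 0.000742). The 3 genes did not overlap between groups, and all 5 called transporters, which include MUP1 and SEO1, were called in each single-library omission of both fits. Next to MMP1, and read in the opposite direction, lies MHT1, which encodes the methyltransferase that uses S-methylmethionine to make methionine. It was at 742, 740.1 and 681 normalised counts in Sc[Sp], against 294, 207 and 241 in ScNI (1.55, SE 0.18, adjusted p = 0.000211). The window before MMP1 is shown because the 2 genes share it, with the match to CTGTGGC, the core that Met31 and Met32 bind, in capitals on the reverse strand.
MMP1, chrXII:17706-18005, plus strand: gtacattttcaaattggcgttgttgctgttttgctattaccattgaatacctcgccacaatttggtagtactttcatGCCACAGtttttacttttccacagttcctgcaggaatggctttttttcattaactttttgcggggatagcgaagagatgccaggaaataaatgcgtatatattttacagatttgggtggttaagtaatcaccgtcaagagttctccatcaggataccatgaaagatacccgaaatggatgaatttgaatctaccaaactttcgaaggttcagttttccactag
That core was in 6 of 17 promoters of the called sulfur genes (35.3%), where MMP1 and MHT1 count the same site once each, in 2 of 30 of the uncalled ones (6.67%) and in 1.97% of all promoters. CACGTG, the core bound by Cbf1, was in 2 of the 17 and 7 of the 30, against 2.95% of all.

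Inside the pathway the sulfate genes moved the same way, while the methionine genes rose at some steps and not at others. Of 11 sulfate uptake and assimilation genes 3 rose, namely SUL1 (0.47), a sulfate permease, MET10 (0.66), a sulfite reductase subunit, and SSU1 (0.83), a sulfite exporter (10 higher in the 12-library fit, median 0.45). All 11 had a log2 difference above 0. Of 27 genes of methionine, cysteine and S-adenosylmethionine metabolism 9 rose and 0 fell (12 higher and 2 lower, median 0.07), with 15 above 0 and 12 below. The rises included STR3 (2.86) and MET6 (2.33). MET2, homoserine acetyltransferase, was at 1334, 1231 and 1176 normalised counts in Sc[Sp], against 679, 573 and 664 in ScNI (0.97, SE 0.13, adjusted p = 0.00061). SAM2, a S-adenosylmethionine synthetase, was at 3611, 3038 and 3305 normalised counts in Sc[Sp], against 2075, 1732 and 1951 in ScNI (0.79, SE 0.20, adjusted p = 0.0189), while its paralogue SAM1 was at 5595, 6073 and 5029.8 in Sc[Sp], against 6302, 5551 and 6305 in ScNI (−0.12, SE 0.22, adjusted p = 0.728). SAM2 thus did not overlap between groups and SAM1 did. CYS3 and CYS4, which make cysteine from homocysteine, were not called, at 0.07 and −0.13. Among 6 regulators, MET28 and MET32 rose, at 1.85 and 0.94, while MET4 itself was at 1193, 1155 and 1044 in Sc[Sp], against 1177, 1056 and 1088 in ScNI (0.03, SE 0.09, adjusted p = 0.843). MET28, a cofactor of Met4, was at 446, 426 and 353 normalised counts in Sc[Sp], against 144, 98.7 and 99.4 in ScNI, 3 or more times higher in the Sc[Sp] library of each pair.

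One-carbon and glycine genes moved next to them. Of 21 genes 9 rose and 1 fell (10 and 3 in the 12-library fit, median 0.03). MTD1, a cytosolic methylenetetrahydrofolate dehydrogenase, was at 3348, 3603 and 3993 normalised counts in Sc[Sp], against 1159.8, 1245 and 959 in ScNI (1.71, SE 0.24, adjusted p = 0.000724). SHM2, the cytosolic serine hydroxymethyltransferase, was at 10353, 11105 and 9958 normalised counts in Sc[Sp], against 4408, 4308 and 3899 in ScNI (1.32, SE 0.16, adjusted p = 0.000356), and its mitochondrial counterpart SHM1 at 4655, 5028 and 4746 in Sc[Sp], against 4901, 4828 and 4948 in ScNI (−0.03, SE 0.07, adjusted p = 0.831). The first 2 genes had no overlap between groups and SHM1 did. GCV1, of the mitochondrial glycine decarboxylase, was at 1786, 2536 and 2046 normalised counts in Sc[Sp], against 613, 650.5 and 575 in ScNI (1.78, SE 0.43, adjusted p = 0.0168). DFR1, dihydrofolate reductase, was the single fall, at 356, 357 and 346 normalised counts in Sc[Sp], against 482, 535 and 579 in ScNI (−0.59, SE 0.07, adjusted p = 0.000356). SER3 and SER33, which begin serine synthesis, both rose (0.78 and 0.45).

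Nitrogen catabolite repressed genes, which serve poor nitrogen sources and are kept low when good ones are present, rose in 12 cases and fell in 0 of 29 (20 and 0 in the 12-library fit, median 0.43). GAP1, the general amino acid permease, was at 1375, 1469.8 and 1190.0 normalised counts in Sc[Sp], against 377, 302 and 346 in ScNI (1.97, SE 0.18, adjusted p = 3.07e-05). GDH2, the glutamate dehydrogenase that releases ammonium, was at 7473, 6413 and 6296 normalised counts in Sc[Sp], against 3277, 2799 and 2950.2 in ScNI (1.16, SE 0.18, adjusted p = 0.00131). GAT1, a GATA activator of this set, was at 551, 656 and 535 normalised counts in Sc[Sp], against 353, 346 and 338 in ScNI (0.74, SE 0.11, adjusted p = 0.00125). Each was higher in all Sc[Sp] libraries without overlap. GLN3, the other activator, was not called (0.21, adjusted p = 0.135), nor were DAL7 (−0.02) and DAL5 (0.19) of allantoin use. Among 24 amino acid and peptide permease genes 8 rose and 0 fell (10 higher and 4 lower, median 0.09). AGP3 was at 556, 594 and 519.6 normalised counts in Sc[Sp], against 219.8, 174 and 189 in ScNI (1.52, SE 0.11, adjusted p = 8.84e-06), and PTR2, the peptide transporter, at 4731, 4616 and 4375 in Sc[Sp], against 2397, 2128 and 2051 in ScNI (1.06, SE 0.19, adjusted p = 0.00296). Both were clear of wild type in all libraries. TAT1, TAT2 and BAP2, permeases with high levels in both strains, were at log2 differences of −0.01, −0.05 and 0.14 and were not called.

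Most genes of a glucose-repressed list rose, with both strains growing in glucose. Such genes serve other carbon sources and are held down by the Mig1 repressor and by inactivity of Snf1 kinase while glucose is plentiful. Of 34 genes for other sugars, acetate, lactate and glycerol 24 rose and 0 fell (28 and 0 in the 12-library fit), with a median of 0.67. GUT2, the mitochondrial glycerol 3-phosphate dehydrogenase, was at 4602, 5215 and 3562 normalised counts in Sc[Sp], against 1768, 1419 and 1424 in ScNI (1.53, SE 0.14, adjusted p = 3.07e-05). CRC1, the mitochondrial carnitine carrier, was at 405, 385 and 316 normalised counts in Sc[Sp], against 115, 90.5 and 90.3 in ScNI (1.89, SE 0.19, adjusted p = 7.6e-05). MAL33, an activator of maltose genes, was at 943, 916 and 899.8 normalised counts in Sc[Sp], against 307, 264 and 287 in ScNI (1.68, SE 0.11, adjusted p = 5.02e-06). None of the 3 overlapped between groups. ALD4 and ALD6, the mitochondrial and cytosolic acetaldehyde dehydrogenases, rose by 1.72 and 1.34, with ALD6 at 46186, 44799 and 36714 normalised counts in Sc[Sp], against 23274, 12852 and 15498 in ScNI, among the highest levels of the list. ALD6 was thus already high in wild type on glucose, so its rise is not shown to be a release from glucose repression. The galactose genes GAL1, GAL7 and GAL10 were not called, at 0.22, 0.49 and 0.07. MAL11 and MAL31, and MAL12 and MAL32, are near-identical pairs whose counts are uncertain.

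Gluconeogenesis and glyoxylate cycle genes, which build sugars from small carbon compounds, gave 12 rises and 0 falls of 20 (17 higher and 1 lower in the 12-library fit, median 0.81). IDP2, cytosolic isocitrate dehydrogenase, was at 632, 606 and 471 normalised counts in Sc[Sp], against 213, 198 and 177 in ScNI (1.52, SE 0.23, adjusted p = 0.00107). ICL1, isocitrate lyase, was at 2096, 1928 and 1690.0 normalised counts in Sc[Sp], against 1125, 926 and 997 in ScNI (0.91, SE 0.11, adjusted p = 0.000285). FBP1 and PCK1, which catalyse the steps particular to gluconeogenesis, rose by 0.68 and 1.05 from low levels: FBP1 was at 189.6, 198 and 181 in Sc[Sp], against 121, 113 and 121 in ScNI. All of these were free of overlap. MAE1, the mitochondrial malic enzyme, went the other way in the 12-library fit alone (−0.52, adjusted p = 0.007 there and 0.186 in the 18-library fit). Cores of the Mig1 site (CCCCGG or CCCCAG) were in 14.8% of 54 promoters of these 2 lists against 5.12% of all, and in 11.1% of the called members against 22.2% of the uncalled ones.

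Among 17 hexose transporter genes 9 rose and 2 fell (10 and 2 in the 12-library fit, median 0.45), and both falls were low-affinity carriers. HXT1, a low-affinity carrier used at high glucose, was at 2642, 3018 and 2403 normalised counts in Sc[Sp], against 6381, 5844 and 6555 in ScNI (−1.22, SE 0.25, adjusted p = 0.00723), and HXT3, also of low affinity, at 17933, 20189 and 16954 in Sc[Sp], against 25908, 28124 and 26976 in ScNI (−0.56, SE 0.12, adjusted p = 0.0101). HXT4 was at 36513, 37031 and 32829.7 normalised counts in Sc[Sp], against 14549, 13403 and 11463 in ScNI (1.44, SE 0.21, adjusted p = 0.00107), and HXT2, a carrier of higher affinity, at 74774, 62714 and 64939 in Sc[Sp], against 41634, 31004 and 32932 in ScNI (0.95, SE 0.26, adjusted p = 0.0279). Each of the 4 genes separated the groups. HXT6 and HXT7, high-affinity carriers, rose too, but are near-identical in sequence, so that their split is uncertain. Of 35 regulators of glucose sensing and repression 14 rose and 3 fell (18 and 3, median 0.29). ADR1, an activator of ethanol and fatty acid use genes, was at 2941, 2509.7 and 2256 normalised counts in Sc[Sp], against 885, 649 and 773 in ScNI (1.74, SE 0.32, adjusted p = 0.00429). CAT8 and SIP4, activators of gluconeogenic genes, rose by 1.06 and 1.65. MTH1, a corepressor of hexose transporter genes, rose by 0.86, whereas its paralogue STD1 fell, at 839.8, 822 and 790.3 normalised counts in Sc[Sp], against 1143, 1299 and 1195 in ScNI (−0.57, SE 0.11, adjusted p = 0.00689). MIG3, a relative of Mig1, fell, at 411, 438 and 327 in Sc[Sp], against 880.1, 701 and 855 in ScNI (−1.05, SE 0.18, adjusted p = 0.00303), and MIG1 rose by 0.35. HXK1, a hexokinase that is repressed by glucose, was at 44429.9, 43847 and 37850.2 normalised counts in Sc[Sp], against 14887, 15447 and 12329 in ScNI (1.57, SE 0.28, adjusted p = 0.00309). Glycolysis genes, in contrast, gave 1 rise and 1 fall of 25 (4 and 5 in the 12-library fit, median −0.08).

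Some respiration genes rose by small steps. Of 41 genes of the respiratory chain and ATP synthase 15 rose and 0 fell (35 and 0 in the 12-library fit), and all 41 log2 differences were above 0, with a median of 0.49. COX26, a subunit found with respiratory supercomplexes, was at 1142, 1041 and 1156 normalised counts in Sc[Sp], against 307, 331 and 334 in ScNI (1.78, SE 0.33, adjusted p = 0.00441). NDI1, the internal NADH dehydrogenase, was at 4589, 4818 and 4140.4 normalised counts in Sc[Sp], against 2543, 2414 and 2302 in ScNI (0.90, SE 0.15, adjusted p = 0.0022), and COX7 at 553, 741 and 734 in Sc[Sp], against 393, 409.5 and 388 in ScNI (0.75, SE 0.14, adjusted p = 0.00534). The groups were apart in each. Of 25 tricarboxylic acid cycle genes 5 rose and 0 fell (12 higher and 2 lower, median 0.25), 3 of them subunits of succinate dehydrogenase: SDH1 (0.93), SDH2 (0.88) and SDH3 (0.54).

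Many genes for reserve carbohydrates and general stress rose as well. Trehalose and glycogen genes gave 14 rises and 0 falls of 23 (19 and 0 in the 12-library fit, median 0.69). GIP2, a putative regulator of glycogen synthase phosphatase, was at 1817, 1723 and 1450.4 normalised counts in Sc[Sp], against 589.7, 609 and 472 in ScNI (1.58, SE 0.24, adjusted p = 0.00107). GPH1, glycogen phosphorylase, was at 18118, 20722 and 14585 normalised counts in Sc[Sp], against 6635, 6899.5 and 5848 in ScNI (1.45, SE 0.35, adjusted p = 0.0154), and GSY2, the main glycogen synthase, at 18123, 20459 and 15597 in Sc[Sp], against 9321, 9418 and 8152 in ScNI (1.00, SE 0.29, adjusted p = 0.0333). Genes of both making and breaking glycogen were thus higher in all Sc[Sp] libraries. Of 36 targets and regulators of the stress factors Msn2 and Msn4, 13 rose and 1 fell (20 and 1, median 0.70). MSN4 was at 4985, 4753 and 4695 normalised counts in Sc[Sp], against 2089, 1841 and 1721 in ScNI (1.36, SE 0.12, adjusted p = 2.1e-05), DDR2 at 1387, 1518 and 1258 in Sc[Sp], against 435, 499 and 429 in ScNI (1.61, SE 0.32, adjusted p = 0.00695), and HSP12, a membrane-stabilising stress protein, at 1406, 1742 and 1278 in Sc[Sp], against 284, 332 and 228 in ScNI (2.39, SE 0.42, adjusted p = 0.00321). The fall was CMK2, a calmodulin-dependent kinase, at 3546, 3287 and 4261 normalised counts in Sc[Sp], against 6230.2, 8839 and 7038 in ScNI (−0.99, SE 0.32, adjusted p = 0.0462). AGGGG, the stress response element, was in 69.4% of the promoters of this list, 35.2% of those of all genes that rose, 11.2% of those of all genes that fell and 21.8% of all promoters. HSP12 is shown with its 2 matches, both on the reverse strand and written as CCCCT, in capitals.
HSP12, chrVI:107006-107305, plus strand: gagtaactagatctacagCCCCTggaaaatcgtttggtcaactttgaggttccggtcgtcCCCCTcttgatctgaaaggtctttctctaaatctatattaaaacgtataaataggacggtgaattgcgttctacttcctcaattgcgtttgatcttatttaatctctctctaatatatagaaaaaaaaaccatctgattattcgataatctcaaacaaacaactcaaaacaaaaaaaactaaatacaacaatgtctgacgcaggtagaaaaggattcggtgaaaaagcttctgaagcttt

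Some protein folding and breakdown genes fell. Of 32 genes for cytosolic chaperones and other targets of the heat shock factor Hsf1 9 fell and 0 rose (14 lower and 1 higher in the 12-library fit, median −0.22). SIS1, an Hsp40 cochaperone, was at 4919, 4986 and 5133 normalised counts in Sc[Sp], against 6938, 8297 and 7639 in ScNI (−0.60, SE 0.10, adjusted p = 0.00202), and BTN2, which sorts misfolded proteins, at 438, 461 and 484 in Sc[Sp], against 859, 1389.8 and 1041 in ScNI (−1.22, SE 0.22, adjusted p = 0.00383). The mitochondrial chaperone gene HSP60 fell as well, at 7130.1, 6433 and 5966 in Sc[Sp], against 9009, 9155 and 9139 in ScNI (−0.49, SE 0.09, adjusted p = 0.00487). No Sc[Sp] library reached the wild-type range for these. Of 43 proteasome genes 11 fell and 1 rose (18 and 2, median −0.14). The rise was RPN4, the transcriptional activator of proteasome genes, at 2790.5, 2804 and 2557 normalised counts in Sc[Sp], against 1672, 1762 and 1808 in ScNI (0.64, SE 0.08, adjusted p = 0.000462), while the falls were small, −0.21 (SCL1) to −0.38 (PRE3).

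Genes of the chaperonin that folds actin fell in part. Of 16 genes of CCT, prefoldin and phosducin-like cofactors 5 fell and 0 rose (9 and 0 in the 12-library fit, median −0.35). None of the 5 was called in all 6 single-library omissions of the 18-library fit, while 8 genes were in those of the 12-library fit. CCT3 was at 3839, 3565 and 3901 normalised counts in Sc[Sp], against 4940.0, 5197 and 5077 in ScNI (−0.43, SE 0.14, adjusted p = 0.049), CCT4 at 4150.1, 4390.4 and 4149.7 in Sc[Sp], against 5497, 5316 and 5504 in ScNI (−0.36, SE 0.12, adjusted p = 0.0467), and CCT7 at 4850.3, 4532 and 4555 in Sc[Sp], against 6219, 6163 and 6318 in ScNI (−0.42, SE 0.14, adjusted p = 0.0497). The 8 ring subunits had log2 differences of −0.23 (CCT2) to −0.49 (CCT6). None had overlap between groups, and neither did 3343 of all 5808 tested genes. Prefoldin, which hands unfolded actin to CCT, varied more: PAC10 was at −0.37, GIM3 at −0.37, GIM4 at −0.17, GIM5 at −0.09, YKE2 at −0.12 and PFD1 at 0.02, none of them called in the 18-library fit.

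Genes of actin patches lay mostly above 0 in log2 difference, though few passed the test with 18 libraries. Of 19 genes of the Arp2/3 complex and its activators, 1 rose in the 18-library fit and 13 were higher in the 12-library fit, with 0 lower in either, 16 of 19 above 0 and a median of 0.27. The subunit ARC15 was at 2495, 3152 and 3025 normalised counts in Sc[Sp], against 2017, 2048 and 1842 in ScNI (0.55, SE 0.22, adjusted p = 0.0922 with 18 libraries and 0.00148 with 12). ARC18 was at 0.48, ARC35 at 0.40, ARC40 at 0.31, ARP2 at 0.27 and ARP3 at 0.17. The called gene was LAS17, the yeast WASP, at 1136, 1501 and 1121 normalised counts in Sc[Sp], against 694, 829 and 806 in ScNI (0.68, SE 0.13, adjusted p = 0.00618). Its highest ScNI library stayed below its lowest Sc[Sp] library. VRP1, which binds Las17, was at 2523, 3336 and 2047 in Sc[Sp], against 1768, 1616 and 1757 in ScNI (0.59, adjusted p = 0.106), highest in the MATalpha library. The type I myosins MYO3 and MYO5 were at 0.43 and 0.22, and CRN1, coronin, at −0.02.

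Filament turnover genes gave 0 rises and 1 fall of 13 (6 higher and 2 lower in the 12-library fit, median 0.24). Log2 differences ran from −0.42 to 0.56, with 11 members above 0 and 2 below. The called fall was among those below 0 and was not called in every single-library omission. It is not among the turnover members given next. Those members were all above 0, and none of them passed the test that called the fall. They therefore do not stand for the only call of this list, which was downward. Profilin, PFY1, was at 4607, 5974 and 5879 normalised counts in Sc[Sp], against 4264, 4333 and 4019 in ScNI (0.37, adjusted p = 0.0807 and 0.00636 in the 2 fits), and cofilin, COF1, at 6166, 6554 and 6639 in Sc[Sp], against 5613, 6019 and 5544 in ScNI (0.17, 0.308 and 0.0511). Fimbrin, SAC6, which bundles filaments, was at 0.08 with overlapping groups. The capping protein genes CAP1 and CAP2 were at 0.31 and 0.25. For the lists of this paragraph the background over all genes was 9.35% higher and 9.57% lower (21.2% and 22.3% in the 12-library fit). Among 16 genes of formins, tropomyosins and cable transport 4 fell and 0 rose (5 lower and 1 higher in the 12-library fit, median −0.07). SHE3, the adaptor that ties mRNA to the myosin Myo4, was at 1063, 1061 and 1037 normalised counts in Sc[Sp], against 1358, 1360.2 and 1446 in ScNI (−0.40, SE 0.09, adjusted p = 0.00991). SPA2, a scaffold for the formin Bni1, was at 1354, 1227 and 1155 normalised counts in Sc[Sp], against 1644, 1582 and 1757 in ScNI (−0.42, SE 0.11, adjusted p = 0.0197), and MDM20, which acetylates tropomyosin with Nat3, at 544, 508 and 539 in Sc[Sp], against 764, 708 and 779.9 in ScNI (−0.50, SE 0.14, adjusted p = 0.0291). These 3 genes separated the groups. The formins BNI1 and BNR1 and the tropomyosins TPM1 and TPM2 were not called, at −0.10, −0.18, −0.03 and −0.03. Of 24 endocytic coat genes 1 rose (11 higher and 3 lower, median 0.19), namely YAP1802, an AP180-like adaptor, at 2386, 2556 and 2116 normalised counts in Sc[Sp], against 1879.9, 1646 and 1676 in ScNI (0.44, SE 0.11, adjusted p = 0.017). Among 27 genes of nuclear actin-related proteins and remodellers, ACT1 included, 5 fell and 0 rose (12 and 0, median −0.13), and ACT1 itself is among the 5. ARP4, an actin-related protein of NuA4 and INO80, was at 1488, 1366 and 1514 normalised counts in Sc[Sp], against 1813, 1913 and 1928 in ScNI (−0.37, SE 0.07, adjusted p = 0.00572).

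Some polarity and mitotic genes rose. As background for the lists here, 9.35% of all genes rose and 9.57% fell (21.2% and 22.3% in the 12-library fit). Of 29 genes for Cdc42 polarity and bud sites 7 rose and 0 fell (10 higher and 4 lower in the 12-library fit, median −0.01). Of the 29, 14 were above 0 and 15 below. None of the 7 was called in all 6 single-library omissions of the 18-library fit, while 9 genes were in those of the 12-library fit. RAX2, a bud site marker, was at 1318, 1402 and 1201 normalised counts in Sc[Sp], against 870.2, 737 and 681 in ScNI (0.78, SE 0.17, adjusted p = 0.011), and AXL2, the axial bud site protein, at 1526, 1579.8 and 1473 in Sc[Sp], against 1065, 983 and 1048 in ScNI (0.56, SE 0.17, adjusted p = 0.0335). Mitotic genes of the Clb2 cluster, switched on at the start of mitosis, were all above 0 in log2 difference, 20 of 20, and 9 rose (16 in the 12-library fit, median 0.39). CLB2 itself, a mitotic cyclin, was at 1083, 940.4 and 962 normalised counts in Sc[Sp], against 669, 652 and 655 in ScNI (0.59, SE 0.09, adjusted p = 0.00159). CDC20, the activator of the anaphase-promoting complex, was at 1264, 1267 and 1152 normalised counts in Sc[Sp], against 801, 793 and 724 in ScNI (0.67, SE 0.12, adjusted p = 0.00309), and HST3, a histone deacetylase, at 1043, 1000.1 and 913 in Sc[Sp], against 636, 616 and 629.8 in ScNI (0.65, SE 0.14, adjusted p = 0.0109). Sc[Sp] was above wild type throughout for these. Of 27 genes of G1 cyclins and the SBF and MBF programme 6 rose and 1 fell (8 and 7, median −0.01), with PCL1, a G1 cyclin, at 524, 557 and 509 in Sc[Sp], against 184, 177 and 166 in ScNI (1.59, SE 0.39, adjusted p = 0.0185). Histone genes gave 0 calls of 10 in the 18-library fit and 7 lower in the 12-library fit (median −0.33), with HTB1 at 9984, 9631 and 11227 in Sc[Sp], against 13396, 13950.3 and 13340.4 in ScNI (−0.40, adjusted p = 0.0706 and 0.00101). In bulk cultures a different share of cells in a phase and a different level per cell cannot be told apart. Septin and ring genes gave 1 rise of 20 (5 higher and 2 lower in the 12-library fit), CHS2, the chitin synthase of the primary septum, and a median of −0.02.

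Some cell wall genes rose. Of 31 wall and GPI protein genes 8 rose and 0 fell (19 higher and 4 lower in the 12-library fit, median 0.34), and of 32 genes of glucan and chitin synthesis and remodelling 9 rose and 0 fell (17 and 2, median 0.26). SED1, an abundant GPI wall protein, was at 61558, 79907 and 53906 normalised counts in Sc[Sp], against 37288, 36231 and 35348 in ScNI (0.82, SE 0.18, adjusted p = 0.00892), and CWP2 at 28608, 39474 and 29581 in Sc[Sp], against 20428, 18702 and 20447 in ScNI (0.70, SE 0.14, adjusted p = 0.00575). CRH1, which links chitin to glucan, was at 9074, 11111 and 9137 normalised counts in Sc[Sp], against 5111, 4659 and 5058 in ScNI (0.98, SE 0.29, adjusted p = 0.0354), and CHS3, the main chitin synthase, at 3399, 3537 and 3021 in Sc[Sp], against 2164, 1905 and 2068 in ScNI (0.70, SE 0.19, adjusted p = 0.0261). All 4 genes were highest in the MATalpha library of Sc[Sp], and none overlapped. The wall protein median was 0.25, 0.66 and 0.23 in the 3 pairs, so that it was largest in the MATalpha pair. Of 23 cell wall integrity signalling genes 6 rose and 1 fell (10 and 1, median 0.16). KDX1, a paralogue of the pathway's MAP kinase Slt2, was at 1256, 1255 and 1273 normalised counts in Sc[Sp], against 459, 419 and 387 in ScNI (1.58, SE 0.49, adjusted p = 0.0417), and the fall was MKK1, one of its MAP kinase kinases (−0.29, SE 0.08, adjusted p = 0.023).

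Pheromone response genes gave 8 rises and 1 fall of 34 (16 and 2 in the 12-library fit, median 0.29). FUS1, a cell fusion protein, was at 757, 1405 and 696 normalised counts in Sc[Sp], against 433, 561 and 359 in ScNI (1.03, SE 0.25, adjusted p = 0.0176), and KAR4, a transcription factor of the response, at 860.2, 1423 and 881 in Sc[Sp], against 607, 693 and 542 in ScNI (0.75, SE 0.11, adjusted p = 0.000742). TEC1, the filamentation factor, was at 4431, 5042 and 3618 in Sc[Sp], against 2377, 1930.1 and 1824 in ScNI (1.09, SE 0.17, adjusted p = 0.00128). All 3 were clear of wild type and highest in the MATalpha library. The 7 MATa-specific and 4 MATalpha-specific genes gave 0 calls (1 and 1 higher in the 12-library fit). BAR1, the protease of MATa cells that degrades alpha factor, was nevertheless at 3698, 203 and 3385 normalised counts in Sc[Sp], against 2185, 107 and 2026 in ScNI (0.81, adjusted p = 0.109 and 0.000241 in the 2 fits), higher in the Sc[Sp] library of each pair.

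Iron and drug resistance genes moved both ways, with more falls than rises. The iron list gave 4 rises and 7 falls of 32 (7 and 14 in the 12-library fit, median −0.15). Over all genes 9.35% rose and 9.57% fell (21.2% and 22.3% in the 12-library fit). The reductive uptake pair FET3, a multicopper oxidase, and FTR1, its permease partner, were at 1623, 1631 and 1561 normalised counts in Sc[Sp], against 4035, 4224 and 4424 in ScNI (−1.40, SE 0.27, adjusted p = 0.00501) and 806, 819 and 797 in Sc[Sp], against 1366, 1382 and 1373 in ScNI (−0.77, SE 0.13, adjusted p = 0.00229). TIS11, which degrades mRNAs of iron-using proteins, was at 92.7, 139 and 107 normalised counts in Sc[Sp], against 288, 363 and 275 in ScNI (−1.45, SE 0.45, adjusted p = 0.0427), and SIT1, a siderophore carrier, at 442, 413 and 365 in Sc[Sp], against 755, 868 and 795 in ScNI (−0.99, SE 0.24, adjusted p = 0.0184). CCC1, which moves iron into the vacuole, rose, at 2159, 1846 and 2149 in Sc[Sp], against 1351, 1254 and 1256 in ScNI (0.67, SE 0.12, adjusted p = 0.00383). Wild type and Sc[Sp] did not overlap in these. Pleiotropic drug resistance genes gave 2 rises and 6 falls of 30 (6 and 10, median −0.02). The regulators PDR1 and PDR3 both fell, at 1016, 967 and 1013 in Sc[Sp], against 1368, 1411 and 1459 in ScNI (−0.50, SE 0.08, adjusted p = 0.0021) and 1171, 1107 and 1163 in Sc[Sp], against 1779.8, 2019.7 and 1810.3 in ScNI (−0.70, SE 0.08, adjusted p = 0.000197), and the exporter PDR5 was at 14570.1, 13288 and 13098 in Sc[Sp], against 28013, 36335 and 31107 in ScNI (−1.21, SE 0.17, adjusted p = 0.000742). QDR2 rose (0.48). Microtubule genes gave 2 rises and 7 falls of 28 (3 and 12, median −0.18), and PAC2, a tubulin folding cofactor, was at 204, 237 and 265 in Sc[Sp], against 299, 334 and 315 in ScNI (−0.43, SE 0.09, adjusted p = 0.00721).

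Set directly against the other strains with introduced actins, Sc[Sp] differed from Sc[At] at 676 genes (11.6%), 281 higher (4.84%) and 395 lower (6.8%), and from Sc[Ca] at 623 (10.7%), 351 higher (6.04%) and 272 lower (4.68%). In the 12-library fit these contrasts gave 1993 genes (34.3%), 15.2% higher and 19.1% lower, against Sc[At] and 1894 (32.6%), 15.9% higher and 16.8% lower, against Sc[Ca]. With quantile normalisation the Sc[Ca] split was 311 higher and 370 lower. The 2 comparisons share the Sc[Sp] libraries. The Sc[At] count was 303, 233 and 70 without Sc[Sp] replicates 1, 2 and 3, and 95, 865 and 140 without Sc[At] replicates 1, 2 and 3. The Sc[Ca] count was 388, 238 and 301 without the Sc[Sp] replicates and 280, 223 and 217 without the Sc[Ca] replicates, each in the order 1, 2 and 3. Against Sc[At], 24 of 46 processome and 29 of 56 large-subunit genes were lower in Sc[Sp] (43 and 50 in the 12-library fit), with medians of −0.95 and −0.82. Against Sc[Ca], 0 of either list were called in the 18-library fit and 26 and 21 were lower in the 12-library fit, with medians of −0.44 and −0.36. NOG2 averaged 423 ± 16.4 in Sc[Sp], 1335 ± 458 in Sc[At], 675 ± 52.1 in Sc[Ca] and 1088 ± 108 in ScNI (SD, n = 3 each). Its log2 difference from Sc[At] was −1.60, SE 0.32, adjusted p = 0.0123, and from Sc[Ca] −0.67, SE 0.32, adjusted p = 0.195. TRF5, a poly(A) polymerase of nuclear RNA surveillance, averaged 164 ± 8.57 in Sc[Sp], 459 ± 88.5 in Sc[At], 220.0 ± 9.29 in Sc[Ca] and 331 ± 22.6 in ScNI (−1.46, SE 0.13, adjusted p = 0.000126 against Sc[At]).

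Of 9 sulfur transporters 5 were higher in Sc[Sp] than in Sc[At] and 6 higher than in Sc[Ca] (6 and 6 in the 12-library fit). MUP1, the high-affinity methionine permease, averaged 8585 ± 574 in Sc[Sp], 2091 ± 282 in Sc[At], 2668 ± 1035 in Sc[Ca] and 2512 ± 696 in ScNI, with log2 differences of 2.04, SE 0.17, adjusted p = 7.48e-05 against Sc[At] and 1.75, SE 0.17, adjusted p = 7.84e-05 against Sc[Ca]. MMP1 averaged 2151 ± 155 in Sc[Sp], 694 ± 93.9 in Sc[At], 656 ± 193 in Sc[Ca] and 665 ± 159 in ScNI (1.64, SE 0.13, adjusted p = 6.19e-05 and 1.75, SE 0.13, adjusted p = 1.41e-05). MHT1 was also higher than in Sc[At] (1.86, SE 0.18, adjusted p = 0.000149). For glucose-repressed carbon genes 13 of 34 were higher than in Sc[At] and 20 of 34 higher than in Sc[Ca] (22 and 26 in the 12-library fit), with medians of 0.46 and 0.82. MAL33 averaged 919.6 ± 21.7 in Sc[Sp], 434 ± 58.3 in Sc[At] and 289 ± 33.6 in Sc[Ca] (1.09, SE 0.11, adjusted p = 0.000361 and 1.67, SE 0.11, adjusted p = 1.1e-05). PUT4 averaged 399 ± 72.5 in Sc[Sp], 179 ± 24.7 in Sc[At] and 59.6 ± 4.54 in Sc[Ca] (1.14, SE 0.22, adjusted p = 0.0106 and 2.71, SE 0.22, adjusted p = 2.11e-05), and SIP4 differed from Sc[Ca] by 1.57, SE 0.13, adjusted p = 2.11e-05. Ribosomal protein genes were higher in Sc[Sp] than in Sc[At] in 12 of 137 cases (90 in the 12-library fit, median 0.27).

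Mitotic, wall and chaperone lists also had calls in these contrasts, in the 18-library fit mostly against Sc[Ca]. The shares over all genes were 6.04% higher and 4.68% lower against Sc[Ca], and 4.84% and 6.8% against Sc[At]. In the 12-library fit they were 15.9% and 16.8% against Sc[Ca], and 15.2% and 19.1% against Sc[At]. Against Sc[Ca], 10 of 20 Clb2-cluster genes and 9 of 32 glucan and chitin genes were higher in Sc[Sp] and 0 lower, while 8 of 32 heat shock genes and 9 of 69 mitochondrial ribosomal protein genes were lower. In the 12-library fit these counts were 14 and 18 higher and 14 and 22 lower. Against Sc[At] the Clb2 cluster gave 1 higher and 1 lower (2 and 1 in the 12-library fit) and the glucan and chitin genes 0 higher and 1 lower (1 and 13). The heat shock genes gave 1 higher and 2 lower (4 and 5), and the mitochondrial ribosomal protein genes 1 higher and 0 lower (8 and 3). In the 18-library fit these counts against Sc[At] were near or below the shares over all genes. CHS2 averaged 1508 ± 152 in Sc[Sp], 1514 ± 139.9 in Sc[At], 968 ± 38.5 in Sc[Ca] and 861 ± 6.69 in ScNI (0.63, SE 0.14, adjusted p = 0.0129 against Sc[Ca], −0.01, SE 0.14, adjusted p = 0.983 against Sc[At]). LAS17 averaged 1253 ± 215 in Sc[Sp], 1267 ± 93.7 in Sc[At], 933 ± 56.6 in Sc[Ca] and 776 ± 72.3 in ScNI (0.41, SE 0.13, adjusted p = 0.0676 against Sc[Ca], −0.03, SE 0.13, adjusted p = 0.918 against Sc[At]). Whether the 2 sets of differences themselves differ was not tested.

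**Figure D5:**
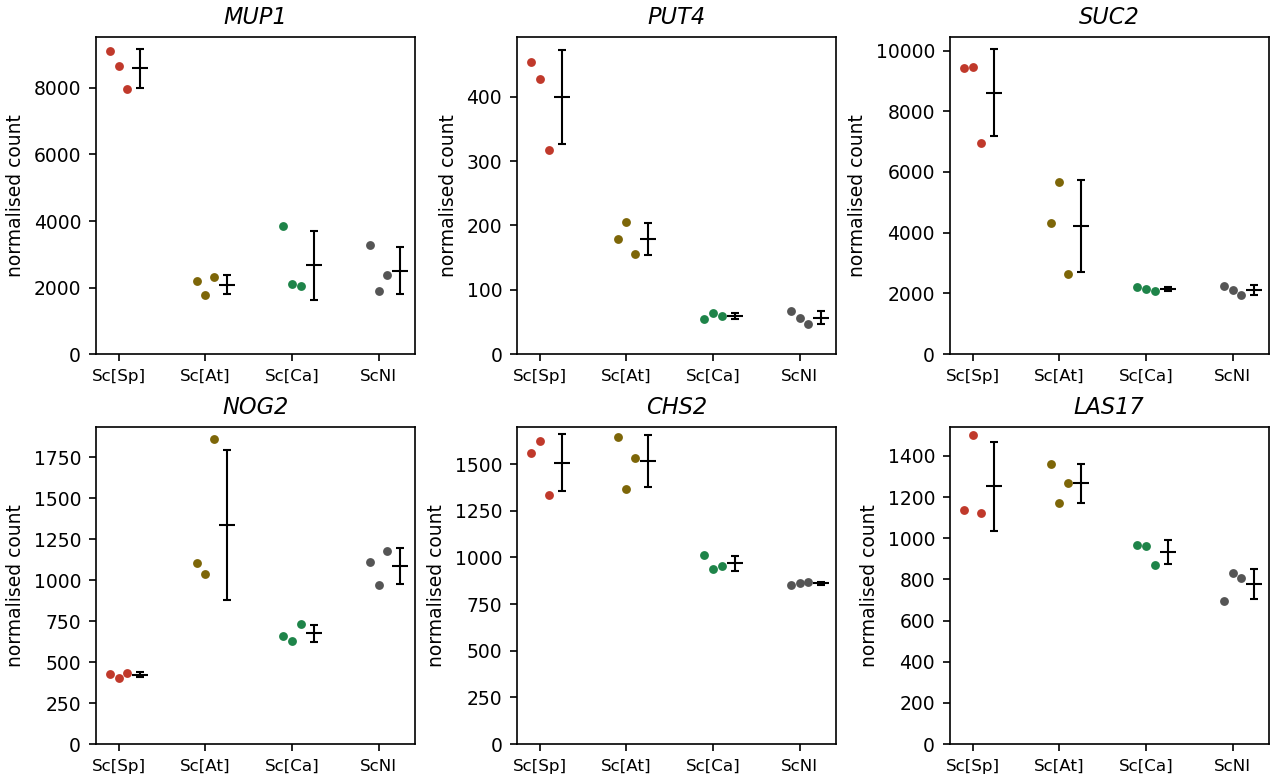
Normalised counts (linear axes from 0) of 6 genes in the 3 libraries each of Sc[Sp], Sc[At], Sc[Ca] and ScNI, with the mean and SD beside the points. MUP1 and PUT4 are highest in Sc[Sp], NOG2 is lowest in Sc[Sp], and CHS2 and LAS17 average 1508 and 1253 in Sc[Sp] and 1514 and 1267 in Sc[At].

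The difference between Sc[Sp] and ScNI was also compared between mating types, with the MATalpha pair against the 2 MATa pairs. No gene of 5808 passed the limma test of this difference in the 18-library fit, 108 had an unadjusted p under 0.05, and edgeR gave 0 and 111. The test rests on 1 MATalpha library per strain, and the 6 libraries alone gave 13 calls. The median log2 difference over all genes was −0.02, −0.02 and −0.003 in the 3 pairs.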

How the data were processed

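Poly(A) RNA of 24 yeast libraries was sequenced. The submitters' processing notes name demultiplexing and read-quality tools (bcl2fastq, version 2.20.0.422, and FastQC, version 0.11.9), Trimmomatic version 0.39, the aligner HISAT2 version 2.2.1, DESeq2 version 1.28.0 and the genome build R64. The counting program, the gene models and the strand setting of the counts were not given in the sources used here. Genes that overlap on opposite strands or have near-identical copies are therefore uncertain. The deposited values are signal, counts that the authors scaled by size factors. Whole reads were recovered from 100% of the values within 0.001 reads, and depth is their sum. The 3 libraries per strain limit the precision.

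Differences were tested in limma (3.58.1, R 4.3.3) on log2(value + 1), which understates the change of low genes, using a mean-variance trend and terms for strain and replicate number. Genes entered at a mean level of 10 or more across the 18 haploid libraries (5808 of 5838), and a call is a Benjamini-Hochberg adjusted p under 0.05. Errors after ± are SDs over 3 libraries. Chi-square tests found no library that repeated another of its strain. After removing strain means, same-numbered Sc[Sp] and ScNI libraries correlated at 0.54, 0.68 and 0.39 (0.25, 0.30 and 0.08 without mating-type lists). All 3 values over all genes exceeded 0.1, so replicate number was kept as a block, although mating type itself sets apart only replicate 2 and the pairing of replicate 3 is weak without the mating-type lists. Alternatives used edgeR 4.0.16 and DESeq2 1.42.0 on the recovered reads, other scalings, pseudocounts and filters, and omissions of libraries and strains. Gene coordinates and promoters came from the R64 genome and annotation, where 5758 rows matched by locus tag, 77 by symbol and 3 not at all. The code was tested on simulated data.

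Members and the 66 gene lists were chosen with earlier results of these data known, so no list is independent evidence. Lists share some members, such as CHS2, BUD3 and NDE1, and each list counts them. Genes were named by rule: the 15 largest called rises and falls with a mean of at least 100 and the same direction in 3 pairs, members of the lists counted beside them, and the 5 genes with the smallest adjusted p against each of Sc[At] and Sc[Ca]. The diploid libraries were not used here, and 2 of the lists are not reported here.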

Additional observations from a re-analysis of the deposited data

Results flagged for a closer look

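The introduced Sc[Sp] row, kept out of the tests, averaged 17412.6 normalised counts in the Sc[Sp] libraries and was at 0 in the 3 ScNI libraries, so that each Sc[Sp] library lay above each ScNI library. The direct contrast of Sc[Sp] with Sc[At] gave 676 genes, which were called between the 2 strains; strain, clone and actin cannot be told apart there. The contrast with Sc[Ca] gave 623 genes. Groups of 3 libraries were not tested for outliers.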

How the results depend on the processing

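The count of 1099 genes for Sc[Sp] against ScNI lay between 1089 and 1519 under the alternatives of scaling, pseudocount, filter, mating type as covariate, edgeR and DESeq2, and was 1217 without the replicate block. It was 2740 in a fit of the 6 libraries with the replicate block and 2732 without it, 2524 without the N2 and Ca strains, and 2411 when the block was dropped there too. Leaving out each of the 6 libraries gave 332 to 595. Doing so without N2 and Ca gave 2111, 2211 and 1892 for Sc[Sp] replicates 1 to 3 and 1826, 1781 and 2155 for ScNI replicates 1 to 3. Without the MATalpha libraries there were 50 calls, 43 higher and 7 lower, and 1852 when N2 and Ca were also left out. For Sc[Sp] against Sc[At] the 676 calls became 1083 with DESeq2, 1993 without N2 and Ca, 24 without the MATalpha libraries, 782 without the replicate block and 70 to 865 in single-library omissions. For Sc[Sp] against Sc[Ca] the 623 calls became 945 with DESeq2, 2796 and 2368 in the 6 libraries with and without the block, 1894 without N2 and Ca, 33 without the MATalpha libraries, 707 without the block and 217 to 388 in single-library omissions. The mating-type difference gave 0 calls, and 13 in the 6 libraries alone. Combinations with the N2 and Ca strains left out beyond the first were chosen after seeing the data. The causes were not tested. TMM scaling and quantile normalisation shifted the median of all genes by −0.01 and −0.02.

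Of 199 genes named in the text 154 were called, and 0 changed direction past the threshold under any alternative. The called ones kept their call in 101 to 127 cases in the single-library omissions, in 147 with quantile normalisation and in 26 without the MATalpha libraries; 148 kept it under all the other alternatives run.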

Other observations

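Amino acid and nucleotide synthesis genes were called at single steps. Of all tested genes, 9.35% rose and 9.57% fell (21.2% and 22.3% in the 12-library fit). The purine, pyrimidine, branched-chain, other amino acid and vitamin counts below were not far from these shares or were below them. Of 23 arginine and lysine genes 6 rose and 0 fell (9 and 2 in the 12-library fit, median 0.25), and they included both ends of arginine metabolism. The median of this list was 0.10, 0.68 and 0.17 in the 3 pairs, so that it was largest in the MATalpha pair. CAR1, the arginase, was at 4968, 5089.6 and 4137 normalised counts in Sc[Sp], against 2425, 1862 and 2123 in ScNI (1.15, SE 0.14, adjusted p = 0.000314), and ARG4, the last enzyme of arginine synthesis, at 3031, 3267 and 3152 in Sc[Sp], against 1873, 1565 and 1643 in ScNI (0.90, SE 0.22, adjusted p = 0.0165). Neither overlapped between groups. Of 26 purine genes 4 rose and 0 fell (7 and 5, median 0.07), with ADE17, which closes the purine ring, at 10075, 11415 and 10428 normalised counts in Sc[Sp], against 5019.6, 5610.1 and 4625 in ScNI (1.07, SE 0.25, adjusted p = 0.0137). Pyrimidine genes gave 1 rise and 1 fall of 13 (4 and 3 in the 12-library fit), branched-chain amino acid genes 1 and 1 of 13 (3 and 3), other amino acid genes 3 and 2 of 36 (8 and 7), and vitamin and NAD genes 3 and 1 of 36 (8 and 1), with SNZ1 of pyridoxine synthesis at 678, 743 and 709.7 in Sc[Sp], against 279.7, 286 and 266 in ScNI (1.35, SE 0.37, adjusted p = 0.0269).

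Of 43 phospholipid, fatty acid and sphingolipid genes 3 rose and 4 fell (10 and 11, median −0.01), near the shares over all genes of 9.35% and 9.57% (21.2% and 22.3% in the 12-library fit). ITR1, the inositol permease, was at 10184, 8884 and 10228 normalised counts in Sc[Sp], against 6265, 5821 and 6069.8 in ScNI (0.69, SE 0.12, adjusted p = 0.00321), and CHO1, phosphatidylserine synthase, at 4405, 3788 and 4286 in Sc[Sp], against 2924, 2809 and 2781 in ScNI (0.55, SE 0.10, adjusted p = 0.00309). PCT1 and ECT1, of the Kennedy pathway to phosphatidylcholine and phosphatidylethanolamine, fell (−0.38 and −0.41), with PCT1 at 1064, 1068 and 1007 normalised counts in Sc[Sp], against 1397, 1363 and 1318 in ScNI. These 3 genes did not overlap between groups. Fatty acid oxidation and peroxisome genes gave 6 rises and 2 falls of 33 (16 and 6, median 0.25), ergosterol genes 1 and 3 of 28 (2 and 7), and hypoxic genes 2 and 3 of 26 (10 and 4).

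Meiotic genes, which haploid cells keep low, gave 6 rises and 1 fall of 29 (9 and 3, median 0.17), with 20 above 0 and 9 below. The shares over all genes were 9.35% and 9.57% (21.2% and 22.3% in the 12-library fit). SGA1, a sporulation glucoamylase, was at 359.8, 388 and 318 normalised counts in Sc[Sp], against 153, 137 and 126 in ScNI (1.35, SE 0.26, adjusted p = 0.00539), and REC8, a meiotic cohesin, at 64.2, 61.9 and 59.9 in Sc[Sp], against 26.2, 32.9 and 28.4 in ScNI (1.07, SE 0.30, adjusted p = 0.0271). The fall was UME6, a repressor of early meiotic genes, at 799, 816 and 806 normalised counts in Sc[Sp], against 1298, 1187 and 1269 in ScNI (−0.63, SE 0.14, adjusted p = 0.0112). All 3 were free of overlap. Other sporulation markers did not rise. NDT80 was lower in the Sc[Sp] library of each pair, at 330, 364 and 331 normalised counts, against 419, 391 and 424 in ScNI. IME1 and IME2 overlapped between groups, with IME1 at 251, 248 and 220 in Sc[Sp], against 252, 262 and 226 in ScNI. ATG5 and ATG39 of autophagy moved apart, ATG5 at 407, 444 and 549 normalised counts in Sc[Sp], against 729, 849 and 791 in ScNI (−0.77, SE 0.13, adjusted p = 0.00212) and ATG39, a receptor for nucleus autophagy, at 359.8, 366 and 366 in Sc[Sp], against 188, 181 and 135 in ScNI (1.13, SE 0.19, adjusted p = 0.00218), the only calls among 34 genes of their list in the 18-library fit (14 higher and 2 lower in the 12-library fit).

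The lists not yet given were as follows, beside 9.35% higher and 9.57% lower over all genes (21.2% and 22.3% in the 12-library fit). Endoplasmic reticulum folding genes gave 0 rises and 2 falls of 22 (1 and 6 in the 12-library fit), oxidative stress and Yap1 targets 4 and 2 of 30 (11 and 5), and phosphate and zinc genes 2 and 3 of 35 (6 and 5). Haploid-specific genes gave 2 rises and 1 fall of 13 (4 and 2), filamentous growth and adhesion genes 3 and 0 of 20 (7 and 0), and regulators of ribosome gene expression 0 and 1 of 17 (1 and 4). Of 7 selection and auxotrophy marker genes tested 3 rose and 0 fell (3 and 0), ADE2 (0.88), TRP1 (0.30) and MET17 (1.42), and the labels do not say which markers these strains carry. The same genes are also counted in the purine, other amino acid and methionine lists.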
